A study of Mus musculus with 36 samples.

Results

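The Notch pathway genes described here are 10 of the 46603 genes listed in each of the count tables: the receptors *Notch1*, *Notch2* and *Notch3*, the ligands *Dll1*, *Dll3* and *Jag1*, and the transcriptional effectors *Hes1*, *Hes5*, *Hes6* and *Hey1*. They were chosen by name for their roles in the pathway, and all 10 passed the filter on low counts at both stages. RNA sequencing measured them in mouse cortex of the C57Bl/6J strain, in 18 libraries that fall into 6 groups of 3. At embryonic day (E) 12.5, 4 genotypes were sampled: wildtype Chd8+/+, heterozygous Chd8+/-, the mild hypomorph Chd8neo/neo and the severe hypomorph Chd8neo/-. At E10.5, conditional knockout (cKO) embryos, Chd8f/f with Sox1-Cre, were set against controls (Ctrl) labelled as a combination of Chd8f/f and Chd8f/+.

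*Chd8* encodes a chromatin remodeller, and the question put to the allelic series was how the embryonic cortex responds as the level of its protein is lowered step by step. The neo allele carries a cassette between neighbouring coding exons that disrupts splicing of *Chd8* transcripts, and the null allele lacks an exon. Sox1-Cre acts in neural progenitors, so that blood, vessels and mesenchyme caught in a dissection keep the gene in the cKO. Each E12.5 library came from a single embryo, whereas each E10.5 library pooled RNA of 2 embryos. In these bulk samples, fewer cells of a type and less RNA per cell cannot be told apart.

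Notch signalling acts between touching cells. A ligand of the Delta or Jagged family on the surface of a cell binds a Notch receptor on its neighbour, the receptor is cleaved, and its intracellular part enters the nucleus and joins the DNA-binding protein RBPJ to switch on *Hes* and *Hey* genes, whose products repress the proneural genes. In the ventricular zone of the cortex, newborn neurons and committed progenitors carry ligand, radial glia carry receptors, and the effectors hold radial glia in the progenitor state. *Hes6* and *Dll3* differ from their relatives: *Hes6* is induced by proneural factors and counteracts *Hes1*, and *Dll3* does not activate receptors on neighbouring cells.

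The effector *Hes5* is a direct target of the RBPJ complex, and its promoter is printed because, of the members with a promoter sequence, only *Hes5* had a match to the RBPJ core motif TGGGAA, searched on both strands. RefSeq promoter sequences on build GRCm38.p6 matched 8 of the 10 members in 10 windows, each cut to the 250 bases before a transcription start. The effectors *Hes1* and *Hey1* had no window, so they were not searched for the motif, and *Hes6* was the only other effector searched. The *Hes5* window lies at chr4:154960673-154960922 on the plus strand and is followed directly by the start of the *Hes5* gene in the count table. Capitals mark the RBPJ core, which begins 226 bases before the start as TTCCCA, the motif on the other strand, and 82 bases before it as TGGGAA.
Hes5: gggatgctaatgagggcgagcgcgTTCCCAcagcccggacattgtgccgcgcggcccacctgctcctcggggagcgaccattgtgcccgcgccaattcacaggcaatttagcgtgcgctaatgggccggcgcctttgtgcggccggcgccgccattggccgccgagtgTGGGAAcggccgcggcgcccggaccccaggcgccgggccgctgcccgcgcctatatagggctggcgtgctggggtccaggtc
The *Hes6* window is printed beside it because *Hes6* responds to proneural factors, which bind E-boxes (CANNTG). It lies at chr1:91414039-91414288 on the minus strand, directly ahead of the start of the *Hes6* gene in the count table, and capitals mark its 3 E-boxes. The other *Hes6* window, at chr1:91413223-91413472, held 1 E-box and 1 N-box and is not printed.
Hes6: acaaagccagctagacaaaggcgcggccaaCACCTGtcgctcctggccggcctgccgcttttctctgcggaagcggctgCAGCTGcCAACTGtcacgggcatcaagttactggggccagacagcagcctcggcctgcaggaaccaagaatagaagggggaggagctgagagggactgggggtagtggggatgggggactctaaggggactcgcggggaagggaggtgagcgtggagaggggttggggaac
Of 32851 promoter windows of this length, 21.6% held the RBPJ core and 2.77% held it at 2 or more positions, 66.2% held an E-box and 31.8% held it at 2 or more positions, and 36.7% held the N-box CACNAG, which HES proteins bind. None of the RBPJ core matches overlapped an E-box or an N-box. The matches are a description of letters in these windows, and binding was not measured.

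The E12.5 libraries held 38774591 to 61051667 counts and those of E10.5 held 49632937 to 68488879, so that each member had at least 923 counts in every library except *Dll3* at E10.5. *Dll3* had 160 to 437 counts there. *Chd8* itself, taken over all its exons, was at 237 ± 2.41 CPM (counts scaled to library size, mean ± SD, n = 3) in Chd8+/+, 167 ± 3.04 in Chd8+/-, 209 ± 5.64 in Chd8neo/neo and 149 ± 8.38 in Chd8neo/-, and at 171 ± 12.005 in E10.5 Ctrl and 121 ± 4.78 in cKO. It was lower than in the control group in every mutant group, with log2 fold changes of -0.51, -0.18, -0.67 and -0.50 in the order given (edgeR's quasi-likelihood test, adjusted p = 0.000138, 0.0201, 8.59e-07 and 0.00109). The value of the mild hypomorph was -0.06 (adjusted p = 0.493) after removal of the per-library trends with length and GC share of the exons. Counts of *Chd8* were higher in Chd8neo/neo than in Chd8+/-, by 0.33 on the log2 scale (adjusted p = 0.00897, edgeR's quasi-likelihood test). The study's protein blots instead had Chd8neo/neo below Chd8+/-, and so did its quantitative RT-PCR of *Chd8* transcripts at an earlier stage. Counts over all exons do not separate aberrantly spliced from correctly spliced transcripts and do not measure protein. The radial glia markers summed to between 2848 and 3266 CPM at E12.5, and none of the 8 was at 0 in a group. Markers of the ventral telencephalon were also present in the E12.5 libraries, at 442 to 596 CPM over 6 genes. The library of E10.5 Ctrl replicate 2 stood apart on the second principal component of the E10.5 libraries, at -24.6 against values between -6.17 and 11.4 in the others, and is left out in turn where a member depends on it.

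The order of the members was set by their level per exon length, in CPM per kilobase (kb) of exon. In Chd8+/+ cortex at E12.5, *Hes6* was highest at 46.4 ± 2.81 CPM per kb (SD, n = 3), followed by *Dll1* at 29.2 ± 2.54 and *Hes5* at 27.4 ± 1.89. *Hey1* stood at 21.3 ± 0.762, *Notch3* at 20.5 ± 3.31, *Notch1* at 19.04 ± 3.36 and *Hes1* at 18.96 ± 0.995. The lowest were *Notch2* at 12.2 ± 0.948, *Dll3* at 8.70 ± 0.347 and *Jag1* at 7.53 ± 0.395. The libraries of *Dll1* and *Hes5* overlapped on this scale, as did those of neighbours among *Hey1*, *Notch3*, *Notch1* and *Hes1*, whereas *Hes6*, *Notch2*, *Dll3* and *Jag1* were each separated from their neighbours in every library.

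Control tissue at E10.5 had a different order. *Hes6* again led at 34.1 ± 8.16 CPM per kb (SD, n = 3), followed by *Dll1* at 22.6 ± 2.40, *Notch3* at 21.2 ± 1.11 and *Hes1* at 20.4 ± 0.570, which overlapped as neighbours. *Hes5* was at 16.99 ± 2.49, *Hey1* at 13.8 ± 1.45, *Notch2* at 10.6 ± 1.35, *Jag1* at 10.3 ± 0.952 and *Notch1* at 7.26 ± 0.882. *Dll3* was lowest at 2.14 ± 0.927, so that the ligand above *Jag1* in the E12.5 order was below it in the E10.5 order. The stages were sequenced and counted separately and differ in age and in pooling, and their levels are therefore set side by side without a test.

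**Figure D1:**
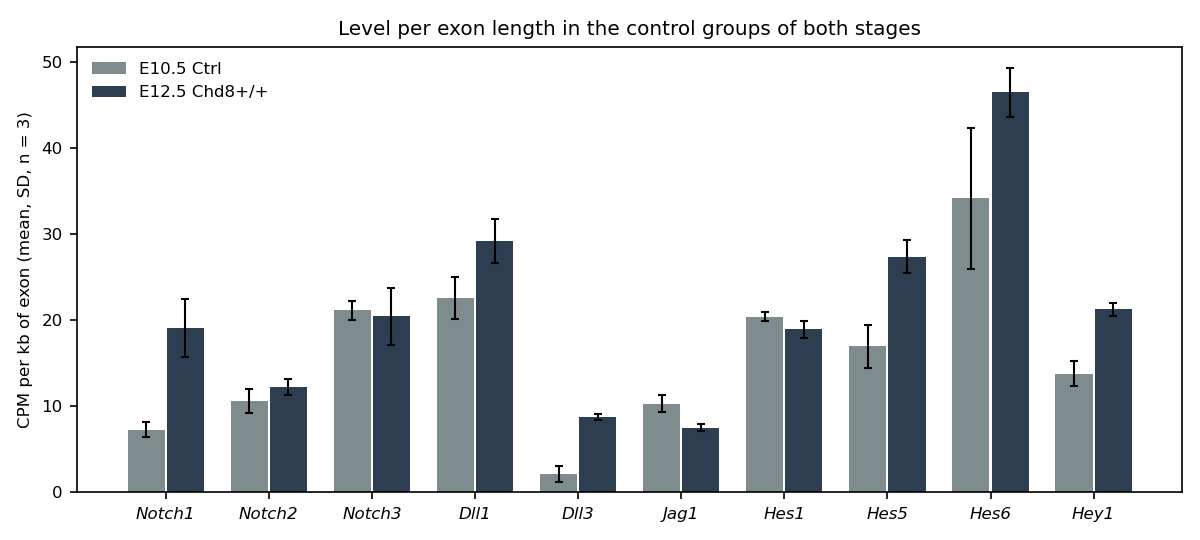
Level of each member per exon length (CPM per kb, vertical axis) in E10.5 Ctrl (light bars) and E12.5 Chd8+/+ (dark bars), as the mean with the SD over 3 libraries. *Hes6* is the highest bar at both stages, and *Dll3* stands at 2.14 CPM per kb at E10.5 and at 8.70 at E12.5.

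At E12.5, heterozygous loss of *Chd8* left no member past the threshold. None of the 10 was called in Chd8+/- against Chd8+/+ (edgeR's quasi-likelihood test, Benjamini-Hochberg adjusted p under 0.05 over the 18810 genes tested), where 0.0213% of all genes tested were called. No member had an unadjusted p under 0.05, and DESeq2 called none either. The median log2 fold change of the 10 members was -0.02, against 0.0012 for all genes tested, and the 95% confidence intervals of the members reached from -0.37 to 0.35. The receptor *Notch2* was the only member whose libraries did not overlap between these groups, at 137, 119.99 and 138 CPM in Chd8+/+ and 139, 148 and 141 CPM in Chd8+/-. Its log2 fold change was 0.11 with a standard error (SE) of 0.053 and an adjusted p of 0.797. Among all genes tested, 11.4% had groups that did not overlap in this comparison.

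In the mild hypomorph, no member passed the threshold against Chd8+/+, where 8.16% of all genes tested did, but the point estimates of 8 of the 10 members were above 0. The median log2 fold change of all 10 was 0.14, against 0.0053 for all genes tested. Without regard to sign, the median size was 0.14 for the members and 0.13 for all genes tested. The members with an unadjusted p under 0.05 were the ligand *Dll1* and the effector *Hes5*. Both are found in the ventricular zone, *Dll1* in cells that signal and *Hes5* in radial glia that receive the signal.

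*Dll1*, the main Delta ligand of cortical progenitors, was measured at 134, 112 and 123 CPM in Chd8+/+, at 118, 124 and 121 CPM in Chd8+/-, at 151, 141 and 132 CPM in Chd8neo/neo and at 125, 127 and 119 CPM in Chd8neo/-. The Chd8neo/neo libraries were high, and the lowest of them lay just under the highest Chd8+/+ library but above all libraries of the other genotypes. Against Chd8+/+ the log2 fold change was 0.20 (SE 0.059, 95% CI 0.07 to 0.33, adjusted p = 0.0522, edgeR's quasi-likelihood test). DESeq2 gave 0.20 with an adjusted p of 0.0242, a call that the first edgeR fit did not make. With edgeR it was called with no filter on low counts and with run 2 only (adjusted p = 0.0398 and 0.0392). It was also called in 2 of the 12 edgeR fits that left out 1 library each, with adjusted p from 0.0194 to 0.202.

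The effector *Hes5* was measured at 37.1, 34.9 and 40.0 CPM in Chd8+/+, at 34.9, 37.4 and 37.3 CPM in Chd8+/-, at 41.5, 50.2 and 40.8 CPM in Chd8neo/neo and at 37.0, 41.6 and 43.0 CPM in Chd8neo/-. All 3 Chd8neo/neo libraries were above all Chd8+/+ and Chd8+/- libraries, with replicate 2 farthest out. The log2 fold change against Chd8+/+ was 0.24 (SE 0.081, 95% CI 0.07 to 0.42, adjusted p = 0.0792, edgeR's quasi-likelihood test). It was called by DESeq2 (adjusted p = 0.0410), and it was 0.15 (adjusted p = 0.334) with the length and GC trends removed. Without Chd8neo/neo replicate 2 it was 0.14 (adjusted p = 0.335).

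*Hes1*, the other core repressor of the pathway, was also higher in every Chd8neo/neo library than in every Chd8+/+ library, by a narrow margin. It was at 39.3, 36.3 and 40.2 CPM in Chd8+/+ and at 42.2, 40.7 and 41.0 CPM in Chd8neo/neo. The log2 fold change was 0.10 (SE 0.057, adjusted p = 0.319, edgeR's quasi-likelihood test). *Hes1* and *Hes5* were the 2 of 10 members whose groups did not overlap in this comparison, where 26% of all genes tested did not. The remaining members of the effector group, *Hes6* and *Hey1*, had log2 fold changes of 0.06 each with adjusted p of 0.643 and 0.668.

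Among the receptors and the other ligands, *Notch1*, *Notch3* and *Dll3* had the widest intervals of the 10 members. *Notch1* had a log2 fold change of 0.18 (95% CI -0.11 to 0.48) and *Notch3* one of 0.22 (95% CI -0.11 to 0.55) in Chd8neo/neo against Chd8+/+. Both varied strongly among wildtype embryos, *Notch1* between 219 and 313 CPM and *Notch3* between 134 and 182 CPM, and for both the lowest of all 12 libraries was Chd8+/+ replicate 2 and the highest Chd8neo/neo replicate 2. *Dll3* had a log2 fold change of 0.24 (95% CI -0.03 to 0.52), with 35.8 CPM in Chd8neo/neo replicate 2 and 23.7 to 29.7 CPM in all other E12.5 libraries. *Notch2* and *Jag1* stood at -0.0037 (95% CI -0.12 to 0.11) and -0.07 (95% CI -0.21 to 0.06).

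Some cell type markers differed in the mild hypomorph. The radial glia genes *Pax6* and *Sox2* were higher in Chd8neo/neo than in Chd8+/+, with log2 fold changes of 0.19 and 0.29 (adjusted p = 0.0199 and 0.0251, edgeR's quasi-likelihood test), whereas the 6 other radial glia markers did not pass the test. The radial glia sums overlapped, at 2849 to 3266 CPM in Chd8neo/neo, where replicate 3 was lowest, and 2848 to 3058 CPM in Chd8+/+. The early neuron markers summed to between 2854 and 3342 CPM in Chd8neo/neo and between 3461 and 4128 CPM in Chd8+/+, and *Dcx* and *Map2* among these 8 genes were lower, with log2 fold changes of -0.42 and -0.32 (adjusted p = 0.00976 and 0.00842). No early neuron or radial glia marker was at 0. *Kdr* of endothelium and *Abcc9* of mural cells were also called lower, at -0.17 and -0.39 (adjusted p = 0.0236 and 0.00976). The part of these markers in the levels of *Dll1* and *Hes5* was not tested.

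**Figure D2:**
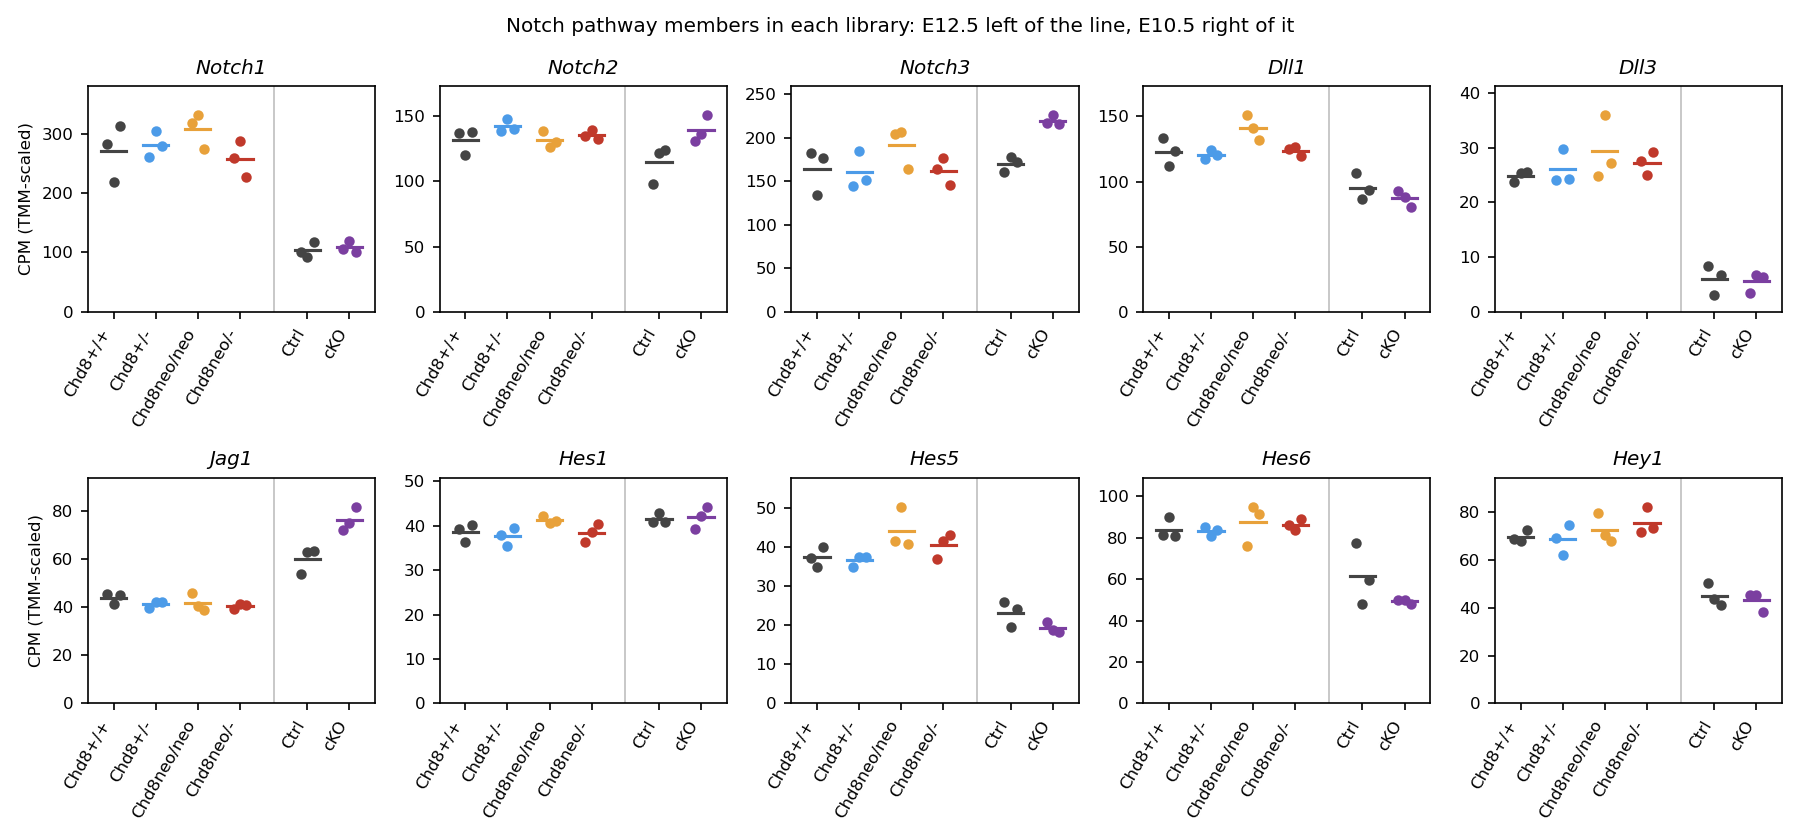
Level of the 10 members in each library, in CPM scaled by TMM (vertical axis, starting at 0), with a point per library and a line at the mean of the group. The 4 E12.5 genotypes stand left of the grey line and the E10.5 groups right of it. *Dll1* and *Hes5* reach 151 and 50.2 CPM in Chd8neo/neo, and *Notch3* and *Jag1* in cKO lie above every Ctrl library.

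Against Chd8+/-, the mild hypomorph gave the only member called among the E12.5 comparisons. *Dll1* rose with a log2 fold change of 0.23 (SE 0.059, 95% CI 0.10 to 0.36, adjusted p = 0.0421, edgeR's quasi-likelihood test), a 1.17-fold difference, and the libraries did not overlap. Same-numbered libraries had weakly positive correlations of their deviations in this comparison (r = 0.108, 0.195 and 0.199), only a hint of pairing. Differently numbered libraries ran from -0.221 to 0.00054 in this comparison, but reached 0.225 in Chd8neo/neo against Chd8+/+. With the replicate number as a block the log2 fold change of *Dll1* was 0.23 and the adjusted p 0.0544, so that the call was lost. The call was kept in 3 of the 12 fits that left out 1 E12.5 library each, namely without Chd8+/+ replicate 1, Chd8+/+ replicate 2 or Chd8neo/neo replicate 3, and the adjusted p over these 12 fits ran from 0.0138 to 0.171. That 1 of 10 members was called compares with 5.28% of all genes tested. The 994 genes behind this share became 23 without Chd8neo/neo replicate 2, 2100 without Chd8neo/neo replicate 3 and 42 with only these groups in the fit. Chd8neo/neo replicates 1 and 2 stood at 20.9 and 19.4 on the first principal component of the E12.5 libraries, replicate 3 at -7.50 and all other genotypes at 10.6 or less. *Sox2* was called higher in this comparison, at 0.26, and *Dcx* and *Map2* lower, at -0.42 and -0.34 (adjusted p = 0.0457, 0.0182 and 0.0159). The part of these markers in the level of *Dll1* was not tested.

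*Hes5* had a log2 fold change of 0.27 in the same comparison (SE 0.082, 95% CI 0.10 to 0.45, adjusted p = 0.0636, edgeR's quasi-likelihood test) and was called by DESeq2 (adjusted p = 0.0246). It was 0.17 with the length and GC trends removed (adjusted p = 0.307) and 0.17 without Chd8neo/neo replicate 2 (adjusted p = 0.238). *Hes1* had 0.13 (SE 0.057, adjusted p = 0.169) and *Notch2* -0.11 (SE 0.053, adjusted p = 0.213). *Dll1*, *Hes1* and *Hes5* were higher and *Notch2* lower in every Chd8neo/neo library than in every Chd8+/- library, 4 of 10 members against 25.5% of all genes tested. These contrasts share the Chd8neo/neo libraries with those against Chd8+/+, so that their likeness is no separate evidence.

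In the severe hypomorph, the members stayed near the level of Chd8+/+ in point estimate. None of the 10 members was called in Chd8neo/- against Chd8+/+, where 11.5% of all genes tested were, and none had an unadjusted p under 0.05 or was called by DESeq2. The median log2 fold change was 0.02, against 0.0011 for all genes. *Dll1* stood at 0.01 (95% CI -0.12 to 0.13) and *Hes1* at -0.01 (95% CI -0.13 to 0.11). *Hes5* was at 0.12 (95% CI -0.06 to 0.29) and *Hey1* at 0.12 (95% CI -0.04 to 0.28). *Dll3* had the largest value, 0.14 (95% CI -0.14 to 0.41), and *Jag1* the lowest, -0.11 (95% CI -0.25 to 0.02). No member had groups that did not overlap, whereas 33.3% of all genes tested did. Erythroid markers summed to between 3910.0 and 6507 CPM in Chd8neo/- and between 2646 and 3403 CPM in Chd8+/+, and the globins *Hbb-bh1* and *Hba-x* of this list were called higher. The early neuron markers *Dcx* and *Map2* were called lower here too, at -0.34 and -0.21 (adjusted p = 0.0174 and 0.0411, edgeR's quasi-likelihood test), with list sums between 3176 and 3557 CPM in Chd8neo/-. The part of blood and of early neurons in the members' values was not tested.

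The remaining comparisons gave no called member. In Chd8neo/- against Chd8+/-, where 5.43% of all genes tested were called, the members' log2 fold changes lay between -0.13 for *Notch1* and 0.15 for *Hes5*, with unadjusted p of 0.0867 or more. None of the 10 members had groups that did not overlap there, against 30.9% of all genes. In Chd8neo/- against Chd8neo/neo, 0.0159% of all genes tested were called. *Dll1* there had a log2 fold change of -0.19 (SE 0.059, 95% CI -0.32 to -0.07, unadjusted p = 0.00562, adjusted p = 0.498, edgeR's quasi-likelihood test), and *Hes1* -0.10 (SE 0.057, adjusted p = 0.632). Every Chd8neo/- library was below every Chd8neo/neo library for both genes, 2 of 10 members against 15.2% of all genes tested.

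At E10.5, conditional loss of *Chd8* was accompanied by higher levels of a receptor and a ligand. *Notch3* and *Jag1* rose in cKO against Ctrl, and no member was called lower. The 2 of 10 members called compare with 11.4% of the 18435 genes tested at this stage. The median log2 fold change of the members was -0.03, against -0.0019 for all genes tested, with 5 point estimates on either side of 0.

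*Notch3*, a receptor found in progenitors and in the mural cells of vessels, was measured at 161, 178 and 172 CPM in Ctrl and at 217, 226 and 216 CPM in cKO. The groups were far apart and the spread within each was small. The log2 fold change was 0.37 (SE 0.058, 95% CI 0.24 to 0.50, adjusted p = 0.00359, edgeR's quasi-likelihood test), a 1.29-fold difference. It was called in all 10 alternative settings and whichever library was left out, with log2 fold changes between 0.26 and 0.40.

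*Jag1*, a ligand of the Jagged family that acts in patterning of the forebrain and in vessels, was measured at 53.7, 63.0 and 63.5 CPM in Ctrl and at 72.3, 75.1 and 81.7 CPM in cKO. Every cKO library was above every Ctrl library, and Ctrl replicate 1 was the lowest. The log2 fold change was 0.35 (SE 0.077, 95% CI 0.18 to 0.52, adjusted p = 0.0172, edgeR's quasi-likelihood test), a 1.27-fold difference. Without cKO replicate 2 or without cKO replicate 3 the adjusted p was 0.0666 and 0.0695, with log2 fold changes of 0.36 and 0.30.

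*Notch2* was the third member whose groups did not overlap. It was measured at 97.8, 122 and 124 CPM in Ctrl and at 131, 136 and 150.5 CPM in cKO, with Ctrl replicate 1 again lowest. The log2 fold change of 0.28 (SE 0.092, 95% CI 0.08 to 0.49) missed the threshold in edgeR's quasi-likelihood test (adjusted p = 0.0760) and passed it in DESeq2 (adjusted p = 0.0239). Groups did not overlap for 3 of 10 members and for 32.2% of all genes tested. *Notch1* did not follow the other receptors in point estimate, at 0.08 (95% CI -0.12 to 0.29).

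The effectors gave lower or near-zero point estimates in the same embryos. *Hes5* was measured at 26.03, 19.4 and 24.03 CPM in Ctrl and at 20.8, 18.8 and 18.2 CPM in cKO, a log2 fold change of -0.27 (SE 0.108, adjusted p = 0.135, edgeR's quasi-likelihood test). *Hes6* was measured at 77.4, 48.1 and 59.6 CPM in Ctrl and at 49.8, 50.2 and 47.9 CPM in cKO, a log2 fold change of -0.32 (SE 0.161, adjusted p = 0.251). For both genes Ctrl replicate 2 lay among the cKO libraries while the other Ctrl libraries lay above them.

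Both effectors depended on single Ctrl libraries. Without Ctrl replicate 1, the highest for both, *Hes5* was at -0.18 and *Hes6* at -0.13 on the log2 scale (adjusted p = 0.332 and 0.392, edgeR's quasi-likelihood test). Without Ctrl replicate 2, *Hes5* fell by 0.38 on the log2 scale and *Hes6* fell by 0.47 (adjusted p = 0.0183 and 0.0121, edgeR's quasi-likelihood test), and 4 members were called instead of 2. The same genes were called with the *Xist* level of each library as a covariate, at -0.33 and -0.41 (adjusted p = 0.0210 and 0.0199). Early neuron markers were lowest in Ctrl replicate 2, at 184 CPM in sum over 8 genes against 306 and 355 CPM in the other Ctrl libraries and 220.3 to 310 CPM in cKO, where *Neurod6* was at 0 in both groups. *Dll3* was likewise lowest in it among the 6 libraries, at 3.19 CPM against 3.46 to 8.35 CPM. The part of this in the effectors' values was not tested.

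*Hes1* and *Hey1* were close to 0 in point estimate. *Hes1* was at 40.9, 42.9 and 40.9 CPM in Ctrl and at 39.3, 42.3 and 44.2 CPM in cKO, a log2 fold change of 0.01 (95% CI -0.13 to 0.16). *Hey1* had -0.07 (95% CI -0.27 to 0.13) and *Dll1* -0.13 (95% CI -0.31 to 0.05). The interval of *Dll3* was the widest of all members, from -1.26 to 1.00.

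**Figure D3:**
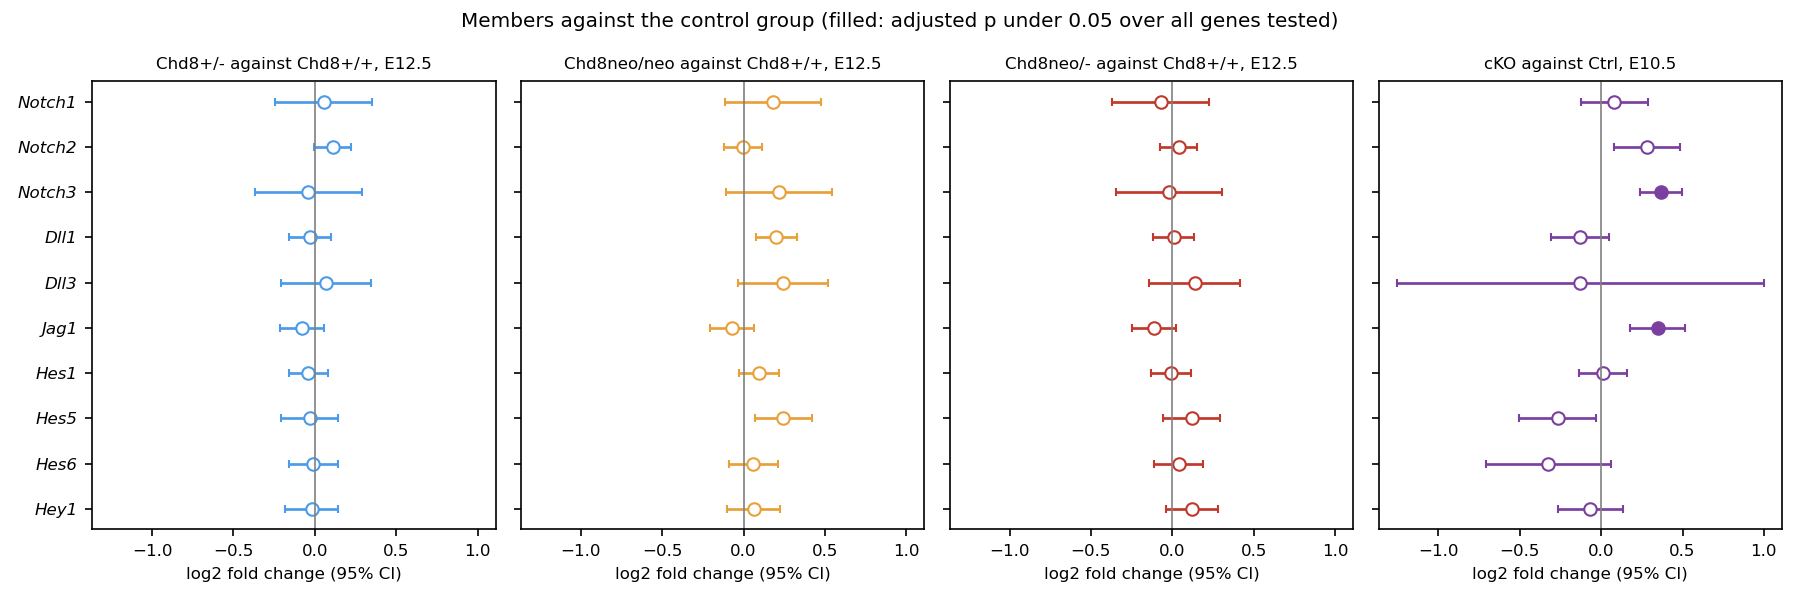
Log2 fold change of each member (horizontal axis) with its 95% confidence interval, for the 3 E12.5 mutants against Chd8+/+ and for cKO against Ctrl at E10.5. Filled points passed an adjusted p under 0.05 over all genes tested: *Notch3* at 0.37 and *Jag1* at 0.35 in cKO, and none in the E12.5 panels.

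Markers of other cells moved with *Notch3* and *Jag1* at E10.5. The 6 mesenchyme and meninges markers summed to between 534 and 588 CPM in Ctrl and between 658 and 825 CPM in cKO, with the collagen gene *Col3a1* and the receptor gene *Pdgfra* called higher by 0.44 and 0.41 on the log2 scale (adjusted p = 0.0271 and 0.00142, edgeR's quasi-likelihood test). The 6 mural cell markers summed to between 47.0 and 59.2 CPM in Ctrl and between 65.3 and 74.0 CPM in cKO, with *Pdgfrb* higher by 0.44 (adjusted p = 0.0220). *Rgs5* and *Kcnj8*, which mark pericytes, were under 1 CPM in both groups, and no marker of either list was at 0. The 8 endothelial markers summed to between 226 and 249 CPM in Ctrl and between 247 and 301 CPM in cKO, with *Cdh5* called higher by 0.25 (adjusted p = 0.0484). Among the other lists, *Prom1* of radial glia, *Gsx2* of the ventral telencephalon and *Pax8* of the midbrain and isthmus were called lower, at -0.25, -1.43 and -1.62, and *Lmx1a* of the cortical hem and *Cx3cr1* of microglia were called higher, at 0.36 and 0.48. The hem and choroid plexus sum was 79.9 to 103 CPM in Ctrl and 105 to 144 CPM in cKO. The microglia sum was 14.7 to 18.4 CPM in Ctrl and 19.9 to 22.3 CPM in cKO, so neither sum overlapped between the groups. At this stage 32.2% of all genes tested had groups that did not overlap. The part of these cells in the levels of *Notch3*, *Jag1* and *Notch2* was not tested.

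**Figure D4:**
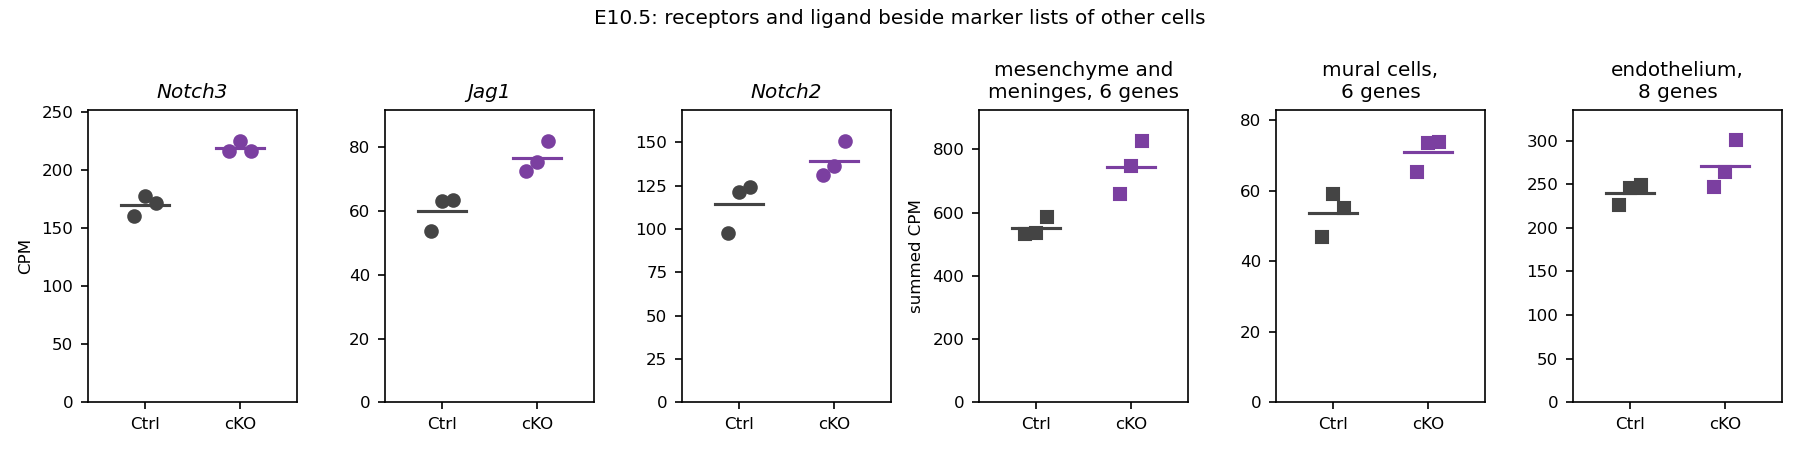
*Notch3*, *Jag1* and *Notch2* in CPM (circles) and the summed CPM of the mesenchyme, mural cell and endothelium marker lists (squares) in each E10.5 library, with a line at the group mean and axes from 0. The cKO libraries lie above every Ctrl library for the 3 genes and for the mesenchyme and mural sums, at 658 to 825 against 534 to 588 CPM for mesenchyme.

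The pathway's other components were followed in a list of 66 genes, of which 63 passed the filter at each stage. In Chd8neo/neo against Chd8+/+, 1 was called higher and 4 were called lower, with a list median of -0.02 on the log2 scale, where 8.16% of all genes tested were called in either direction. The count was 10 with DESeq2 and 0 without Chd8+/+ replicate 3, without Chd8neo/neo replicate 2 or with only these groups in the fit. *Lfng*, which encodes the Lunatic fringe glycosyltransferase that tunes receptors toward Delta ligands, was at 46.2, 47.0 and 47.5 CPM in Chd8+/+ and at 50.3, 56.9 and 53.3 CPM in Chd8neo/neo and rose by 0.19 (adjusted p = 0.0452, edgeR's quasi-likelihood test). Those that fell were *Dner*, a Notch ligand of neurons, at -0.51 (adjusted p = 0.0439), *Neurl1b*, a ubiquitin ligase for ligand endocytosis, at -0.61 (0.0249), *Dtx3l*, of the Deltex family, at -0.44 (0.0202), and *Itch*, a ubiquitin ligase that acts on Notch, at -0.12 (0.0391). *Lfng* was also called higher against Chd8+/-, at 0.21 (adjusted p = 0.0406), together with the corepressor *Tle1* at 0.20 (0.0477), and none was called lower there. Of all genes tested, 5.28% were called in that comparison.

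In the severe hypomorph, 5 of the 63 genes were called lower against Chd8+/+ and none higher, with a list median of -0.03, where 11.5% of all genes tested were called in either direction. *Itch* fell by 0.17 on the log2 scale (adjusted p = 0.00568), *Dtx3l* by 0.51 (0.00625), the kinase gene *Aak1*, which acts in endocytosis, by 0.18 (0.0129), and *Rfng*, of the fringe family, by 0.19 (0.0315). The corepressor *Spen*, the fifth and named after its value was seen, fell by 0.30 (adjusted p = 0.0324, edgeR's quasi-likelihood test). Against Chd8+/-, *Notch4*, a receptor of endothelial cells, was called higher at 0.28 (adjusted p = 0.0304) and *Itch* lower at -0.12 (0.0488). Of all genes tested, 5.43% were called there. The endothelial markers *Kdr*, *Tie1* and *Esam* were called higher in the same comparison, at 0.23, 0.26 and 0.26, and the 8 markers summed to between 281.3 and 314 CPM in Chd8neo/- and between 250.4 and 264 CPM in Chd8+/-. The part of endothelium in the level of *Notch4* was not tested. None of the 63 was called in Chd8+/- against Chd8+/+ or in Chd8neo/- against Chd8neo/neo.

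In the cKO, 4 of the 63 were called higher and 4 lower, with a list median of 0.05, where 11.4% of all genes tested were called in either direction. *Cdkn1a*, a cell cycle inhibitor that Notch and p53 both regulate, was at 7.74, 3.56 and 6.75 CPM in Ctrl and at 70.3, 100.3 and 100.2 CPM in cKO, a log2 fold change of 3.90 (SE 0.335, adjusted p = 0.00511, edgeR's quasi-likelihood test). The study itself reported *Cdkn1a* as raised in the cKO, as a gene of the p53 pathway. The part of Notch signalling in its level was not tested. *Pofut1*, which adds fucose to receptors, rose by 0.23 (adjusted p = 0.0259) and the corepressor *Tle3* by 0.24 (0.0335). *Dtx3* and *Dtx3l* of the Deltex family fell by 0.44 and 0.50 (adjusted p = 0.00233 and 0.0109), the acetyltransferase gene *Kat2b* by 0.44 (0.0132), and *Poglut1*, which adds glucose to receptors, by 0.19 (0.0390).

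The proneural and basal progenitor factors that Notch signalling restrains were followed in a list of 11 genes besides *Hes6*, all tested at both stages. *Gadd45g*, which is switched on in cells leaving the cycle, was called higher in Chd8neo/neo against Chd8+/+, at 0.18 (adjusted p = 0.0479, edgeR's quasi-likelihood test), and none was called lower. It was the only gene of the 11 called there, against 8.16% of all genes tested. *Mfap4*, an extracellular matrix gene, was called higher in the cKO at 0.32 (adjusted p = 0.0275, edgeR's quasi-likelihood test). It was the only gene of the 11 called in the cKO, against 11.4% of all genes tested, and the list median was -0.18. The mesenchyme markers *Col3a1* and *Pdgfra* and the mural cell marker *Pdgfrb* were called higher in the same comparison. The part of these cells in the level of *Mfap4* was not tested. No gene of this list was called in the other 5 comparisons.

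Across the 12 E12.5 libraries, the tested gene with the level most like each member's was found by Pearson's r of log2 CPM, as a description in which all genes share libraries, depth and genotype. *Notch1* was most like *Chd7* (r = 0.966), *Notch3* most like *Eml1* (0.976), and *Dll1* most like *Skida1* (0.966). *Hes5* was most like *Polr2m* (0.937), *Dll3* most like *Jakmip3* (0.923), *Hes1* most like *Siah2* (0.903), *Hes6* most like *Ppp1r14b* (0.898), *Jag1* most like *Col4a3bp* (0.888), *Notch2* most like *Cfap73* (0.871) and *Hey1* most like *Crlf3* (0.845). From *Notch3* on, the genes next in likeness were *Hip1*, *Pfas*, *Gnai2*, *C130093G08Rik*, *Ppp1cc*, *Selenom*, *Gm38394*, *Fbxo45* and *Ska1* in the same order, with r between 0.844 and 0.962. The members themselves and genes without a symbol were left out of this search, so likeness between members was not examined.

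Some members share exon sequence with genes annotated on the same stretch, and the E12.5 counting used no strand, while the options of the E10.5 counting are not given in its file. *Hes5* shares 31.8% of its 1363 exon bases with *Gm20421* on the opposite strand, and *Dll1* shares 20.5% of its 4219 exon bases with *A930024N18Rik*, also on the opposite strand. *Gm20421* had 3 to 24 counts in the 18 libraries and *A930024N18Rik* 19 to 134, at most 1.66% and 2.105% of the counts of each pair. *Notch1*, *Notch2* and *Notch3* share between 5.02% and 9.76% of their exon bases with other genes, and *Dll3*, *Jag1*, *Hes1*, *Hes6* and *Hey1* share none. Reads from the shared stretches cannot be told apart between the genes of such a pair, and these shares do not show whether such reads were counted. The levels per kb divide by all exon bases of a gene, shared stretches included. How this bears on the order of *Dll1* and *Hes5* was not examined.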

How the data were processed

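Cortical RNA of 18 mouse libraries was sequenced by the authors, each in 2 runs (36 entries, paired-end reads). Per the labels and methods, the authors trimmed reads with Trim Galore 0.4.1, checked them with FastQC 0.11.2, aligned them to GRCm38 with TopHat2 2.1.0 and counted them per gene with featureCounts 1.5.0. The E12.5 command in the file header sets no strand, although the kit marks strand, and the E10.5 options are not given in the sources used here. The deposited values are raw counts per gene and run, in a table for each stage.

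Runs were summed per library. Each whole table was filtered with filterByExpr, scaled by TMM and tested with edgeR 4.0.16's quasi-likelihood test in R 4.3.3, with all 4 genotypes in the E12.5 fit, and p-values were adjusted by Benjamini-Hochberg over all genes tested. Levels are CPM (counts scaled to library size), computed with TMM-scaled library sizes. Libraries of a group are separate embryos or, at E10.5, pools of 2. The script was tested on simulated data. The members and lists were chosen with earlier results of these data known. Named beyond the members were, of the wider pathway list and the proneural list, up to the 4 called genes of smallest adjusted p per comparison and direction, and for each member the 2 genes most like it. Some genes that this rule covers are not reported here.

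Same-numbered libraries were checked for shared deviations from their group means. In Chd8neo/neo against Chd8+/- all 3 correlations were over 0.1 (0.108, 0.195 and 0.199), a hint from the data, since the labels give no shared litter or day. In the other comparisons at least 1 was not. Alternatives were DESeq2 1.42.0, RLE and upper quartile scaling, no filter, only the groups compared, the replicate block, an *Xist* covariate, removal of length and GC trends, single runs and leaving out each library.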

Additional observations from a re-analysis of the deposited data

How the results depend on the processing

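Members were called in no alternative for Chd8+/- against Chd8+/+, Chd8neo/- against Chd8+/+, Chd8neo/- against Chd8+/- and Chd8neo/- against Chd8neo/neo. In Chd8neo/neo against Chd8+/+, 0 members became 2 with DESeq2, 1 with no filter and 1 with run 2 only, and 0 to 2 when a library was left out. In Chd8neo/neo against Chd8+/-, 1 member became 2 with DESeq2 and 0 with only the groups compared, with the replicate block, with the *Xist* covariate, with length and GC trends removed, with these and the block, and with run 2 only, and 0 to 2 when a library was left out. In cKO against Ctrl, 2 members became 4 with the *Xist* covariate, 3 with DESeq2, no filter, the replicate block, or the block with length and GC trends removed, and 1 to 4 when a library was left out. Under the replicate block *Notch2* in cKO was called (adjusted p = 0.0168, edgeR's quasi-likelihood test), though numbers did not pair those libraries. The causes were not tested. Of 1540 member values under alternatives, 89 changed sign, in 33 of 70 pairs of member and comparison, 0 of them called and none over 0.17 in size on the log2 scale. Scaling moved group mean levels by at most 0.755%. The wider list's counts moved from 5 to between 0 and 11 in Chd8neo/neo against Chd8+/+, and with DESeq2 from 5 to 8 in Chd8neo/- against Chd8+/+, from 2 to 7 in each mutant against Chd8+/-, and from 8 to 13 in cKO. With 3 libraries a group, *Dll3* at E10.5 was the least precise member.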
